A study of Homo sapiens with 36 samples.

Results

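The genes described here were 10 heat shock proteins and cochaperones, chosen by symbol out of the 60675 genes of the count table: HSPA1A, HSPA1B, HSPA8, HSPH1, DNAJB1, BAG3, HSP90AA1, HSPB1, HSPD1 and HSPE1. These genes, and the lists of other chaperone genes used below, were chosen with earlier results of these data known. Their counts beside the shares of all genes are therefore descriptions, not tests of a list fixed in advance. All 10 were found and all 10 passed the filter on low counts in every comparison. They were followed through 36 RNA sequencing libraries of 2 human cell lines, the astrocytoma line SW1783 and the colorectal adenocarcinoma line HT29, with 12 groups of 3 replicates after 24 h of treatment. In batch B, cells of each line received vehicle or ACD, an extract made with hot water from the monkshood Aconitum carmichaeli Debeaux, at 500, 100 or 20 µg/mL (high, medium and low dose). In batch A, cells of each line received vehicle or 10 µM wortmannin, which inhibits the lipid kinase PI3K and was used as positive control. The labels give the vehicle as 0.1% DMSO, and the methods describe stocks in PBS with 2% DMSO that were diluted into the medium. SW1783 was grown in L-15 medium without added CO2 and HT29 in DMEM with 5% CO2, so that cell line and culture medium cannot be told apart. Each tissue was represented by 1 cell line, and the labels do not say whether the replicates were separate cultures, so the p-values measure the spread between these libraries, which may be technical.

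Heat shock proteins are chaperones that keep other proteins folded. HSP70 proteins bind unfolded stretches with ATP, J proteins such as DNAJB1 deliver clients to them, and HSPH1 and BAG3 exchange their nucleotide, while HSP90 finishes many signalling proteins and the small protein HSPB1 holds unfolded proteins until an HSP70 takes them over. HSPD1 and HSPE1 form the chaperonin and its lid inside mitochondria. In stressed cells the transcription factor HSF1 binds heat shock elements, which are repeats of the letters GAA in alternating orientation, and induces many of these genes.

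The heat shock element is the feature that the promoters of these genes are known for, so a selection of the matching stretches is shown first. Promoter windows of RefSeq on GRCh38.p14, from 250 bases before to 50 bases after each start site, were found for all 10 genes and searched for the letters GAANNTTC and TTCNNGAA, each of which reads the same on both strands and may overlap the other. At least 1 window of 7 of the 10 genes held either pattern, against 13.5% of 35116 windows of all genes, and HSPA8, HSP90AA1 and HSPD1 held a run of 3 units (GAANNTTCNNGAA or TTCNNGAANNTTC), against 0.49% of all windows. HSPD1 and HSP90AA1 have 2 windows each and DNAJB1 has 3, which gave these genes more chances of a match. The windows of HSPH1, BAG3 and HSPE1 held neither pattern, which says only that these letters are not in those windows. The matches shown come from the start site at 102087044 for HSP90AA1, at 14518397 for DNAJB1 and at 197499840 for HSPD1. The other window of HSP90AA1 and that of HSPD1 held none. The HSPD1 stretch, at 197500062 to 197500090, lies between HSPD1 start site 197499840 and the nearby window of HSPE1, which begins at 197500129. Further matches, not printed, began 68 bases before the same start site of HSP90AA1 and 77 bases before that of DNAJB1, and 1 began after another start site of DNAJB1, at 14517937. Below, capitals mark the matched letters, and each sequence runs 5′ to 3′ on the strand of its gene.
HSPA8 (chr11:123062173-123062197, minus strand, match from 55 bases before the start site): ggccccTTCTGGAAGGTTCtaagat
HSPA8 (chr11:123062348-123062372, minus strand, match from 230 bases before the start site): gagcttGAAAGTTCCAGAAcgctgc
HSP90AA1 (chr14:102087114-102087138, minus strand, match from 88 bases before the start site at 102087044): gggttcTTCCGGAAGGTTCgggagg
HSPD1 (chr2:197500062-197500090, minus strand, match from 245 bases before the start site at 197499840): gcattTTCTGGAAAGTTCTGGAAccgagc
HSPB1 (chr7:76302485-76302504, plus strand, match from 182 bases before the start site): acgagaGAAGGTTCcagatg
DNAJB1 (chr19:14518431-14518450, minus strand, match from 47 bases before the start site at 14518397): gctctgGAAGCTTCcgccgg

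HSPA1A and HSPA1B are neighbouring genes for the stress-inducible HSP70, and their upstream sequences are shown whole because the genes are close copies whose reads can be confused. Over the 250 bases before each start site, 235 of 251 aligned positions were identical (93.6%), with 14 mismatches and 2 gaps. Capitals mark the heat shock element GAATATTC and, nearer the start site, the TATA box TATAAA, which 7.33% of all windows held on the strand of the gene. Among the 10 genes these were the only 2 with that TATA box in a window.
HSPA1A (chr6:31815293-31815542, plus strand): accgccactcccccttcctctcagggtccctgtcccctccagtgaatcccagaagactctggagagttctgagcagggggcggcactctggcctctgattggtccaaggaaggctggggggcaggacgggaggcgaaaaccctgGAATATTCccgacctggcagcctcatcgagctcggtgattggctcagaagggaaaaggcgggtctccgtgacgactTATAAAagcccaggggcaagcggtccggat
HSPA1B (chr6:31827488-31827737, plus strand): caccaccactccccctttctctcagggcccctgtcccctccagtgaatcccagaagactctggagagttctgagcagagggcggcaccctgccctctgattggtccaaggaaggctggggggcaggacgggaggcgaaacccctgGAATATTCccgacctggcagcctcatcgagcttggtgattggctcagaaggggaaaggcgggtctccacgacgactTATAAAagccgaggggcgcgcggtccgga

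The SW1783 libraries held 18863852 to 26436841 counts each and the HT29 libraries 15941250 to 33866636. The vimentin gene VIM was at 4080 to 4970 CPM (counts relative to the library total) in SW1783 and at most 0.133 in HT29, and the epithelial gene EPCAM was at 452 to 585 CPM in HT29 and at most 0.202 in SW1783. The defining astrocyte genes GFAP, S100B and AQP4 were at or near 0 in SW1783, with a maximum of 0.261 CPM. Replicate 2 of the HT29 high dose, the library with the fewest counts, stood apart from its group for HSPE1, HSPD1, HSPA8 and HSP90AA1. Values without it are given for those of the 10 genes whose call or size turned on it. Values of the other chaperone genes at the HT29 high dose are given with it only. Between the batches, vehicle libraries that carry the same number were closer to each other (chi-square per degree of freedom 1.46 to 1.64) than those of different numbers (2.04 to 17.7), and whether they came from the same culture is not stated. None of the 10 genes differed between the vehicles of both batches by DESeq2 in either line (0 of 10 with adjusted p under 0.05, with 0 at an unadjusted p under 0.05 and 0 by edgeR), against 0.00348% of all genes tested in SW1783 and 0% in HT29. That fit had no replicate block. Same-numbered vehicles deviated together, at r = 0.232 to 0.294 in SW1783 and 0.42 to 0.771 in HT29 over 3 pairs each, and with the replicate number as a block HSP90AA1 differed in HT29 by 0.07 (adjusted p = 0.000339, DESeq2). With the block, adjusted p-values were left out for 5 of the 10 genes in SW1783 and for 3 in HT29, no other gene of the 10 had one under 0.05, and the size of the difference was at most 0.11 in SW1783 and 0.07 in HT29.

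Levels of the genes were compared per kilobase of the MANE Select transcript, as CPM per kb in the batch B vehicle (mean ± SD, n = 3). In SW1783 the constitutive HSP70 gene HSPA8 was highest at 522 ± 10.6. HSPB1 at 375 ± 39.8 and the stress-inducible cytosolic HSP90 gene HSP90AA1 at 350 ± 7.15 came next, and their libraries overlapped. HSPD1 (157 ± 3.02) and HSPE1 (116 ± 4.65) lay in the middle, and DNAJB1 (63 ± 1.66), HSPA1A (49.6 ± 0.946), HSPA1B (41.5 ± 1.74), HSPH1 (24.3 ± 0.337) and BAG3 (21.1 ± 1.14) were lowest. Apart from HSPB1 and HSP90AA1, no neighbours in this order overlapped. In HT29 the order began with HSPA8 at 902 ± 32, followed by HSPD1 at 508 ± 6.14, HSPE1 at 420 ± 12.6, HSP90AA1 at 303 ± 23.6 and HSPB1 at 163 ± 25.5. HSPA1B (82.7 ± 1.96), HSPA1A (74.7 ± 0.719), HSPH1 (70.2 ± 3.81), DNAJB1 (42.7 ± 0.618) and BAG3 (14.9 ± 0.655) followed, with no overlap between neighbours. BAG3 was the lowest gene in both lines and HSPA8 the highest.

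**Figure D1:**
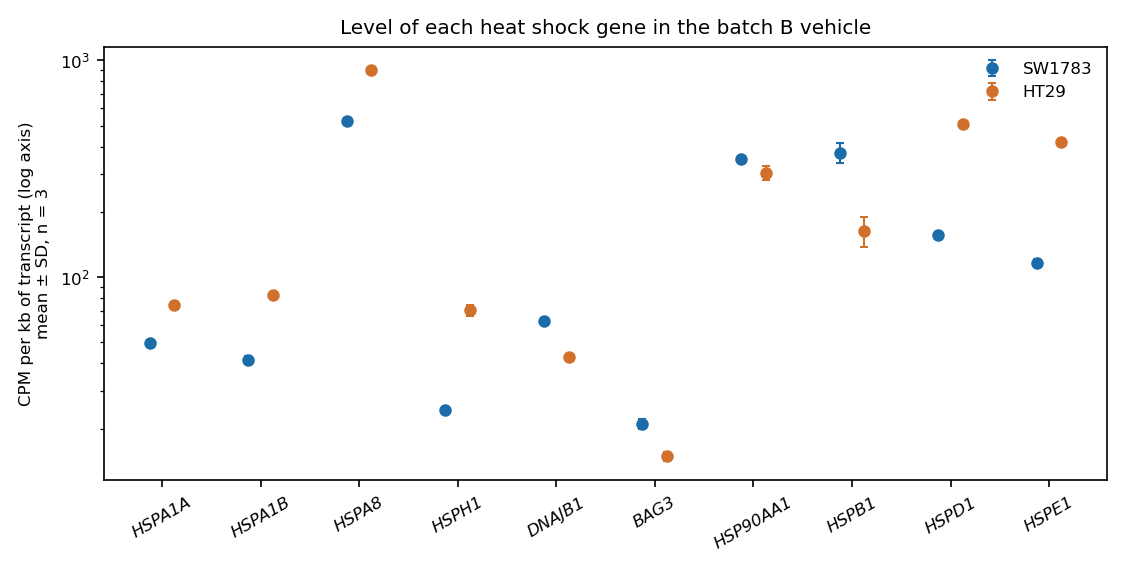
Level of each of the 10 genes in the batch B vehicle, as CPM per kb of transcript on a log axis, with points for the mean and bars for the SD of 3 libraries, SW1783 in blue and HT29 in orange. HSPD1 and HSPE1 sit at 157 and 116 in SW1783 and at 508 and 420 in HT29, whereas HSPB1 is higher in SW1783.

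The lines were compared directly in the vehicle of batch B with DESeq2, where a gene was called when its adjusted p-value was under 0.05 and its change over 1.5-fold. Of the 10 genes, 6 were called, against 55.9% of all genes tested, and 10 of 10 had an adjusted p under 0.05 at any size, against 69.4%. Genes with many counts pass at any size with smaller changes than genes with few counts. The shares of all genes, here and below, were not matched for count level. Both mitochondrial chaperonin genes were lower in SW1783, HSPE1 by a log2 fold change of -1.83 ± 0.06 (SE) and HSPD1 by -1.68 ± 0.04. HSPH1 (-1.51 ± 0.05), HSPA1B (-0.98 ± 0.06) and HSPA8 (-0.77 ± 0.04) were also lower in SW1783, and HSPB1 was higher (1.22 ± 0.12). DNAJB1 at 0.58 ± 0.05 and HSPA1A at -0.57 ± 0.05 lay just inside the fold threshold, and each passed it in some alternative fits, HSPA1A by edgeR at -0.60. With the counts of HSPA1A and HSPA1B summed the difference was -0.77 ± 0.05 (adjusted p = 1.05e-62, DESeq2). The 10 genes together took 0.357% ± 0.0034 (SD, n = 3) of all counts in the SW1783 vehicle and 0.541% ± 0.0041 in that of HT29.

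The high dose of the extract was compared with vehicle to find which chaperone genes responded in the astrocytoma line. In SW1783, 4 of the 10 genes fell more than 1.5-fold, the HSP70 genes HSPA1A, HSPA8 and HSPA1B and the small heat shock gene HSPB1, against 9.57% of all genes tested that were called lower. With no limit on size, 9 of 10 fell, against 22.6% of all genes, and none rose. HSPD1 alone was not called at any size. The share of all counts taken by the 10 genes was 0.215% ± 0.0029 at the high dose, 0.294% ± 0.0058 at the medium dose and 0.372% ± 0.018 at the low dose. In bulk samples, fewer cells of a kind and less RNA per cell cannot be told apart.

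Of the HSP70 genes, HSPA1A had normalized counts of 2364, 2413 and 2459 in the SW1783 vehicle and of 1005, 942.4 and 998.9 at the high dose. All treated libraries lay far below all vehicle libraries, and the log2 fold change was -1.30 ± 0.05 (adjusted p = 5.24e-124, DESeq2). HSPA1B had 2199, 2013 and 2132 in vehicle and 1115, 1112 and 1239 at the high dose, a change of -0.87 ± 0.06 (adjusted p = 1.53e-45). The constitutive gene HSPA8 had 24480, 23740 and 23570 in vehicle and 10240, 9953 and 10530 at the high dose. Its change of -1.22 ± 0.04 (adjusted p = 3.22e-249) was close to that of HSPA1A although its level per kb was far higher. RSEM divides reads that match both HSPA1A and HSPA1B by a model, so each value alone is uncertain, and with their counts summed the change was -1.08 ± 0.05 (adjusted p = 2.21e-115). Further copies were scarce in SW1783 batch B vehicle and high dose, with raw counts of 5 to 10 for HSPA6 and 0 to 1 for HSPA7.

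Among the partners of HSP70, HSPH1, a nucleotide exchange factor of the HSP110 family, had 2564, 2612 and 2565 in vehicle and 1947, 1997 and 1919 at the high dose. The J protein gene DNAJB1 had 2900, 2901 and 2783 in vehicle and 2306, 2346 and 2360 at the high dose. BAG3, which links HSP70 to small heat shock proteins and to selective autophagy, had 1064, 1156 and 1056 in vehicle and 816.2, 793.7 and 866.1 at the high dose. For each of these 3 genes all treated libraries lay below all vehicle libraries. Their log2 fold changes were -0.40 ± 0.04, -0.29 ± 0.04 and -0.41 ± 0.06, with adjusted p of 7.62e-21, 9.6e-13 and 6.25e-10, so they fell by less than 1.5-fold. DNAJB1 overlaps TECR on the other strand, and the strand setting of the counting was not stated.

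HSP90AA1 had 22880, 23260 and 22480 in vehicle and 17930, 18510 and 18630 at the high dose, a fall of 19.7% (log2 fold change -0.32 ± 0.03, adjusted p = 2.25e-24). It overlaps WDR20 on the other strand. HSPB1 had 5181, 6192 and 6318 in vehicle and 3151, 3104 and 3310 at the high dose, a change of -0.89 ± 0.05 (adjusted p = 7.29e-59). Replicate 1 of the SW1783 vehicle was the lowest of its group for HSPB1 and still lay above every high-dose library.

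The mitochondrial pair separated. HSPD1, the chaperonin, had 7285, 7081 and 7027 in vehicle and 7086, 7196 and 7016 at the high dose, and the groups overlapped (log2 fold change -0.01 ± 0.03, 95% interval -0.06 to 0.05, adjusted p = 0.885). HSPE1, the lid of the same complex, had 1270, 1295 and 1375 in vehicle and 881, 895.5 and 915.7 at the high dose (-0.55 ± 0.06, adjusted p = 2.07e-16). The genes lie head to head on chromosome 2, HSPD1 at 197486584 to 197516737 on the minus strand and HSPE1 at 197500140 to 197503449 on the plus strand (GENCODE v44, GRCh38), and their annotated spans overlap. HSPE1 also shares its strand with the readthrough gene HSPE1-MOB4, which had 0 to 13 raw counts in these 6 libraries. The ratio of HSPE1 to HSPD1 raw counts was 0.174, 0.183 and 0.196 in vehicle and 0.124, 0.124 and 0.131 at the high dose, with no overlap. An exact two-sided permutation test of that ratio on the log2 scale gave p = 0.1, the smallest value that 3 against 3 libraries can give.

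**Figure D2:**
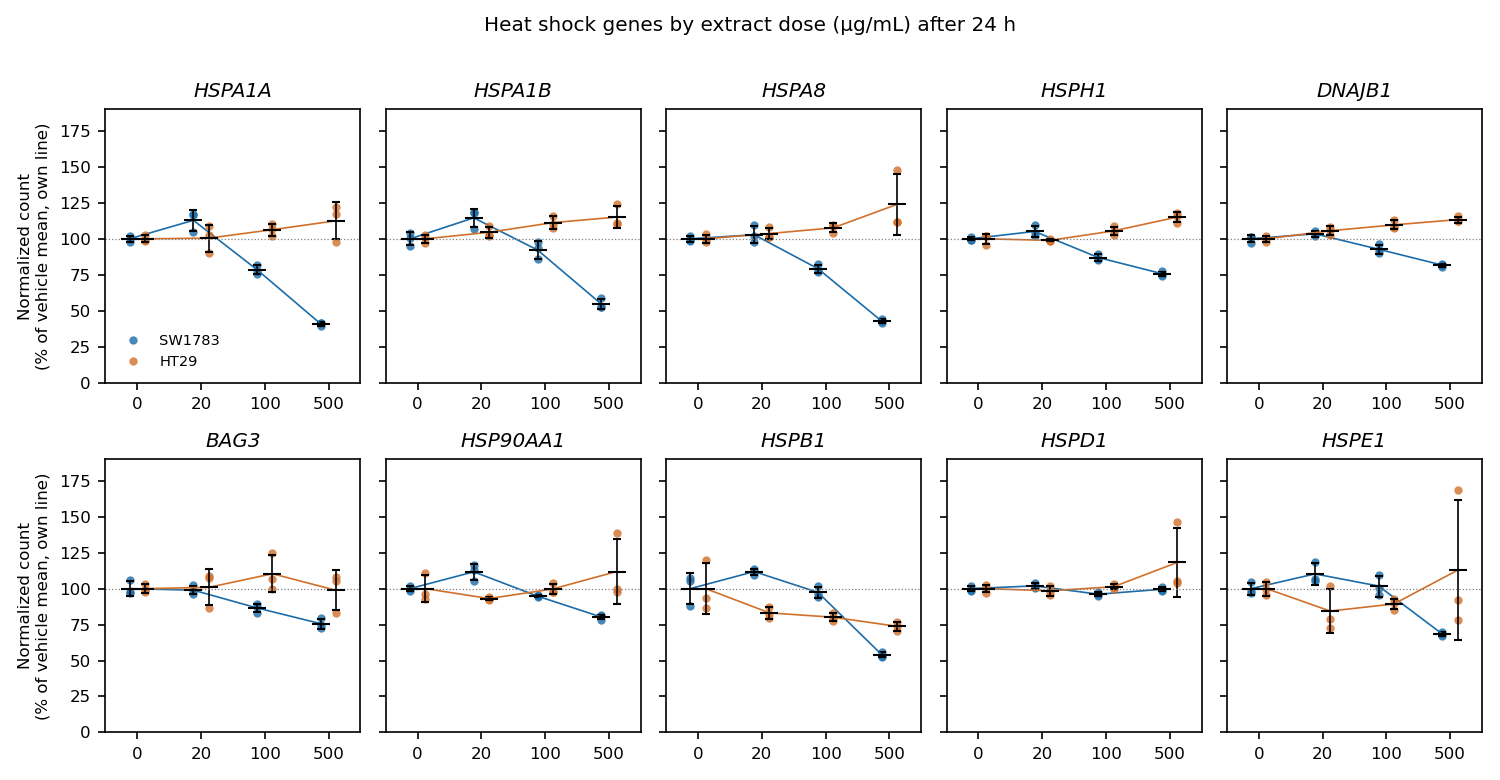
Normalized count of each gene by extract dose (µg/mL, 0 for vehicle), as a percentage of the vehicle mean of the same line, with 1 point per library, black marks and bars for the mean and SD of 3 libraries, SW1783 in blue and HT29 in orange. In SW1783, HSPA1A, HSPA8, HSPB1 and HSPA1B fall furthest at 500 µg/mL, and HSPD1 stays near 100%, while 1 HT29 library at 500 µg/mL lies far above its group for HSPE1, HSPD1, HSPA8 and HSP90AA1.

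At the medium dose in SW1783, 0 of 10 genes were called by DESeq2, against 3.81% of all genes. Of the 10, 7 had an unadjusted p under 0.05 and edgeR called 0. With no limit on size, 6 fell, against 14.5% of all genes. HSPA1A had 1829, 1871 and 1978 at this dose and HSPA8 had 18480, 18720 and 19690, all below their vehicle libraries. Their log2 fold changes against vehicle were -0.35 ± 0.05 and -0.34 ± 0.04 (adjusted p = 2.26e-10 and 2.73e-19). HSPA1B, with 1813, 2064 and 1974, overlapped its vehicle (-0.11 ± 0.06, adjusted p = 0.131). With the counts of HSPA1A and HSPA1B summed the change was -0.24 ± 0.05 (adjusted p = 2.96e-06, DESeq2). BAG3 (-0.21 ± 0.06), HSPH1 (-0.20 ± 0.04), DNAJB1 (-0.11 ± 0.04) and HSP90AA1 (-0.08 ± 0.03) made up the rest of the 6 that fell. HSPB1, which fell by 45.9% at the high dose, was at 5542, 5689 and 6000 and overlapped its vehicle (-0.04 ± 0.05, 95% interval -0.14 to 0.07). HSPE1 also overlapped (0.02 ± 0.06).

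At the low dose in SW1783, 0 of 10 genes were called by DESeq2 (0.118% of all genes), with 5 of 10 at an unadjusted p under 0.05 and 0 called by edgeR. With no limit on size, 3 of 10 rose, by only 11.7% to 14.6%, against 2.05% of all genes. HSP90AA1 had 24090, 25870 and 26670 (0.16 ± 0.03, adjusted p = 2.36e-05), HSPA1A had 2520, 2815 and 2833 (0.17 ± 0.05, adjusted p = 0.0211) and HSPA1B had 2266, 2516 and 2487 (0.20 ± 0.06, adjusted p = 0.0265). For these 3 genes every low-dose library lay above every vehicle library. With the counts of HSPA1A and HSPA1B summed the change was 0.18 ± 0.04 (adjusted p = 0.00309, DESeq2). HSPA8 at the low dose overlapped its vehicle (0.04 ± 0.04).

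The step from the medium to the high dose, tested directly, called 4 of 10 genes lower, against 5.61% of all genes. They were HSPA1A (-0.95 ± 0.06), HSPA8 (-0.89 ± 0.04), HSPB1 (-0.85 ± 0.05) and HSPA1B (-0.76 ± 0.06). At any size 9 of 10 fell in this step, against 19.8% of all genes. HSPE1 at -0.57 ± 0.06 lay just inside the fold threshold and passed it without SW1783 high-dose replicate 3 (-0.59) or without medium-dose replicate 2 (-0.62).

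Expression of the same genes in HT29 was measured at the same doses. At the high dose 0 of 10 were called by DESeq2, against 2.92% of all genes, with 6 of 10 at an unadjusted p under 0.05 and 0 called by edgeR. At any size 4 of 10 rose, against 4% of all genes, and 1 fell, against 3.62%. By edgeR only HSPB1 had an adjusted p under 0.05 (-0.44, adjusted p = 0.0291), and the genes that rose by DESeq2 had 0.0879 (HSPH1), 0.105 (DNAJB1), 0.12 (HSPA8) and 0.124 (HSPA1B). HSPH1 had 8340, 8855 and 8896 in vehicle and 9674, 10270 and 10100 at the high dose (0.20 ± 0.05, adjusted p = 0.000466), and DNAJB1 had 2309, 2262 and 2218 against 2536, 2621 and 2539 (0.18 ± 0.05, adjusted p = 0.0067). Both genes were above vehicle in all treated libraries. HSPA1B had 5053, 4945 and 4762 in vehicle and 6095, 5426 and 5471 at the high dose (0.20 ± 0.06, adjusted p = 0.0259). With the counts of HSPA1A and HSPA1B summed the change was 0.19 ± 0.07 (adjusted p = 0.0994, DESeq2). HSPB1 had 3592, 2797 and 2593 in vehicle and 2305, 2110 and 2211 at the high dose (-0.44 ± 0.11, adjusted p = 0.00339), and it was the only gene of the 10 that fell in HT29 at this dose.

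In replicate 2 of the HT29 high dose HSPE1 was at 9322, against 4343 and 5093 in the other two. HSPD1 was at 39420 there against 28000 and 28350, HSPA8 at 71520 against 54010 and 53960, and HSP90AA1 at 32020 against 22630 and 23050. HSPA1A was instead lowest in that library, at 4161 against 5193 and 4970. The library had 15941250 counts in all, and the part of depth in these values was not tested. With it, HSPA8 changed by 0.31 ± 0.10 (adjusted p = 0.044) and HSPA1A by 0.17 ± 0.10 (adjusted p = 0.347). Without it, HSPA8 changed by 0.16 (adjusted p = 0.00907), HSPA1A by 0.26 (adjusted p = 0.00465) and HSPE1 by -0.23 (adjusted p = 0.137), which for HSPE1 was 0.17 ± 0.23 with it. HSPD1 changed by 0.24 with it and by 0.06 without it (adjusted p = 0.386), and HSP90AA1 by 0.16 and -0.02 (adjusted p = 0.886).

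At the medium dose in HT29, 0 of 10 genes had an adjusted p under 0.05 by DESeq2 (2.09% of all genes), with 3 at an unadjusted p under 0.05. At the low dose it was 0 of 10 (0.649% of all genes), with 1 at an unadjusted p under 0.05, and between the high and medium doses 0 of 10 (1.7%), again with 1. edgeR gave 0 in each of these comparisons. The intervals were wide for HSPE1, whose change at the low dose was -0.25 with a 95% interval of -0.70 to 0.21, and narrow for HSPH1, at -0.02 with an interval of -0.11 to 0.07.

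**Figure D3:**
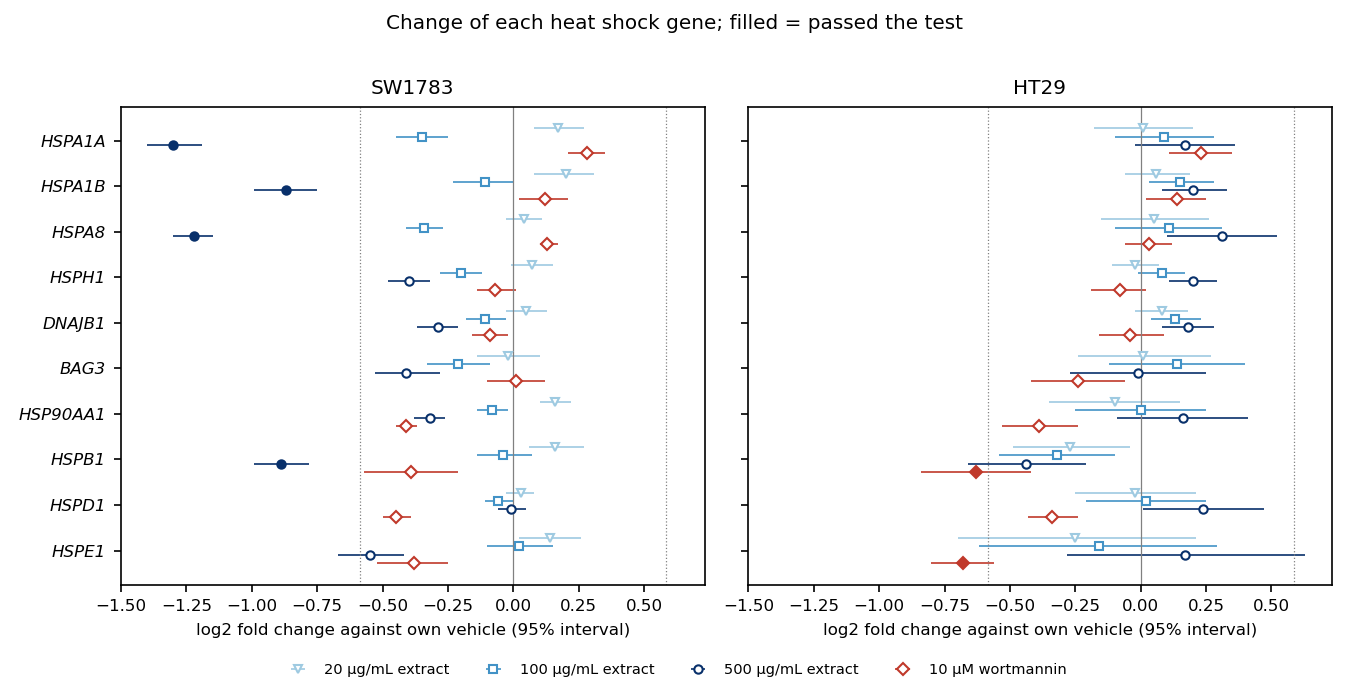
Log2 fold change of each gene against the vehicle of its own line and batch, with points for the estimate and bars for the 95% interval, SW1783 on the left and HT29 on the right. Filled symbols passed both thresholds, dotted lines mark 1.5-fold, and the only filled extract symbols are HSPA1A, HSPA1B, HSPA8 and HSPB1 at 500 µg/mL in SW1783.

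Whether the lines responded differently was tested as an interaction, the change in SW1783 minus the change in HT29. At the high dose 5 of 10 genes were called, all lower in SW1783, against 7.77% of all genes, and at any size 9 of 10 were lower, against 15%. HSPA8 differed by -1.57 ± 0.11 (adjusted p = 1.63e-44), HSPA1A by -1.51 ± 0.11 (9.13e-38) and HSPA1B by -1.12 ± 0.09 (5.1e-32). With the counts of HSPA1A and HSPA1B summed the difference was -1.31 ± 0.09 (adjusted p = 4.79e-45, DESeq2). HSPH1 differed by -0.64 ± 0.05 (adjusted p = 3.65e-33), with a fall in SW1783 and a rise in HT29. HSPE1 differed by -0.76 ± 0.26 (adjusted p = 0.0133), a call that was lost without HT29 high-dose replicate 2 (-0.37, adjusted p = 0.0277) and when only the groups compared entered the fit (adjusted p = 0.0509). HSPB1, which fell in both lines, differed by -0.49 ± 0.13 (adjusted p = 0.00114), and for HSPD1 the difference was -0.29 ± 0.12 (adjusted p = 0.0506). Without HT29 high-dose replicate 2 the difference for HSPD1 was -0.12 (adjusted p = 0.0222), and for HSPA8, HSPA1A, HSPA1B and HSPH1 it was -1.43, -1.61, -1.15 and -0.63. HSP90AA1 differed by -0.52 ± 0.13 with that library and by -0.35 without it, and BAG3 by -0.44 ± 0.14 and -0.55. For DNAJB1 the difference was -0.51 with and without it.

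At the medium dose 0 of 10 interactions were called by DESeq2, against 3.34% of all genes, with 7 at an unadjusted p under 0.05 and 0 called by edgeR. At any size 5 of 10 were lower in SW1783, against 6.18%. These were HSPA1A (-0.46 ± 0.11), HSPA8 (-0.46 ± 0.11), HSPH1 (-0.30 ± 0.05), HSPA1B (-0.29 ± 0.09) and DNAJB1 (-0.26 ± 0.05). At the low dose 0 of 10 had an adjusted p under 0.05, against 0.929% of all genes, with 1 at an unadjusted p under 0.05 and 0 by edgeR.

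Wortmannin, the positive control, gave another pattern in these genes. In SW1783, 0 of 10 were called by DESeq2, against 2.72% of all genes, with 8 at an unadjusted p under 0.05 and 0 called by edgeR. At any size 5 fell, against 20.1% of all genes, and 2 rose, against 13.8%. In HT29, 2 of 10 were called lower, against 0.731% of all genes. At any size 4 fell in HT29, against 11.1%, and 1 rose, against 7.63%. HSP90AA1, HSPB1, HSPD1 and HSPE1 fell in both lines and HSPA1A rose in both, and the lines share no library. The share of all genes that moved the same way in both lines was not computed.

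HSPD1 had 8530, 8193 and 8235 in the SW1783 vehicle of batch A and 6029, 6013 and 6283 with wortmannin, a change of -0.45 ± 0.03 (adjusted p = 9.6e-53). In HT29 it had 26140, 24340 and 25140 in vehicle and 20110, 20040 and 19600 with wortmannin (-0.34 ± 0.05, adjusted p = 2.39e-10). In neither line did its groups overlap, in contrast to the high dose of the extract in SW1783. HSPE1 had 1599, 1547 and 1839 in the SW1783 vehicle and 1342, 1154 and 1325 with wortmannin (-0.38 ± 0.07, adjusted p = 2.78e-07). In HT29 it had 5578, 5072 and 5242 against 3200, 3284 and 3409, and this fall of 37.7% (-0.68 ± 0.06, adjusted p = 6.06e-27) passed the fold threshold.

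HSP90AA1 had 26860, 27080 and 26830 in the SW1783 vehicle and 19710, 20410 and 20550 with wortmannin (-0.41 ± 0.02, adjusted p = 1.78e-95). In HT29 it had 24900, 21470 and 20850 against 16840, 16860 and 17750 (-0.39 ± 0.07, adjusted p = 3.55e-06). All treated libraries were lower than all vehicle libraries in both lines. HSPB1 had 3268, 2580 and 2310 in the HT29 vehicle and 1796, 1741 and 1733 with wortmannin (-0.63 ± 0.11, adjusted p = 4.08e-07). Without vehicle replicate 1, the highest of the 3, this change was -0.48 and no longer over 1.5-fold. In SW1783, HSPB1 changed by -0.39 ± 0.09 (adjusted p = 0.000167).

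HSPA1A had 2676, 2727 and 2789 in the SW1783 vehicle and 3288, 3304 and 3359 with wortmannin (0.28 ± 0.04, adjusted p = 1.49e-12). In HT29 it had 4313, 3984 and 3900 against 4839, 4550 and 4907 (0.23 ± 0.06, adjusted p = 0.00322). All treated libraries lay above all vehicle libraries in both lines. HSPA1B changed by 0.12 ± 0.05 in SW1783 (adjusted p = 0.0577, DESeq2) and by 0.14 ± 0.06 in HT29 (adjusted p = 0.0794, DESeq2). With the counts of HSPA1A and HSPA1B summed the change was 0.21 ± 0.03 in SW1783 and 0.18 ± 0.06 in HT29. HSPA8 rose in SW1783 (0.13 ± 0.02, adjusted p = 3.51e-12) and was at 0.03 ± 0.04 in HT29. BAG3 overlapped its vehicle in SW1783 (0.01 ± 0.06) and had a change of -0.24 ± 0.09 in HT29 (adjusted p = 0.0545). The interaction with the cell line was called for 0 of 10 genes (3.36% of all genes), with 4 at an unadjusted p under 0.05 and 0 called by edgeR. At any size 2 of 10 differed, against 14.9% of all genes, HSPE1 by 0.28 ± 0.10 and HSPD1 by -0.13 ± 0.05.

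**Figure D4:**
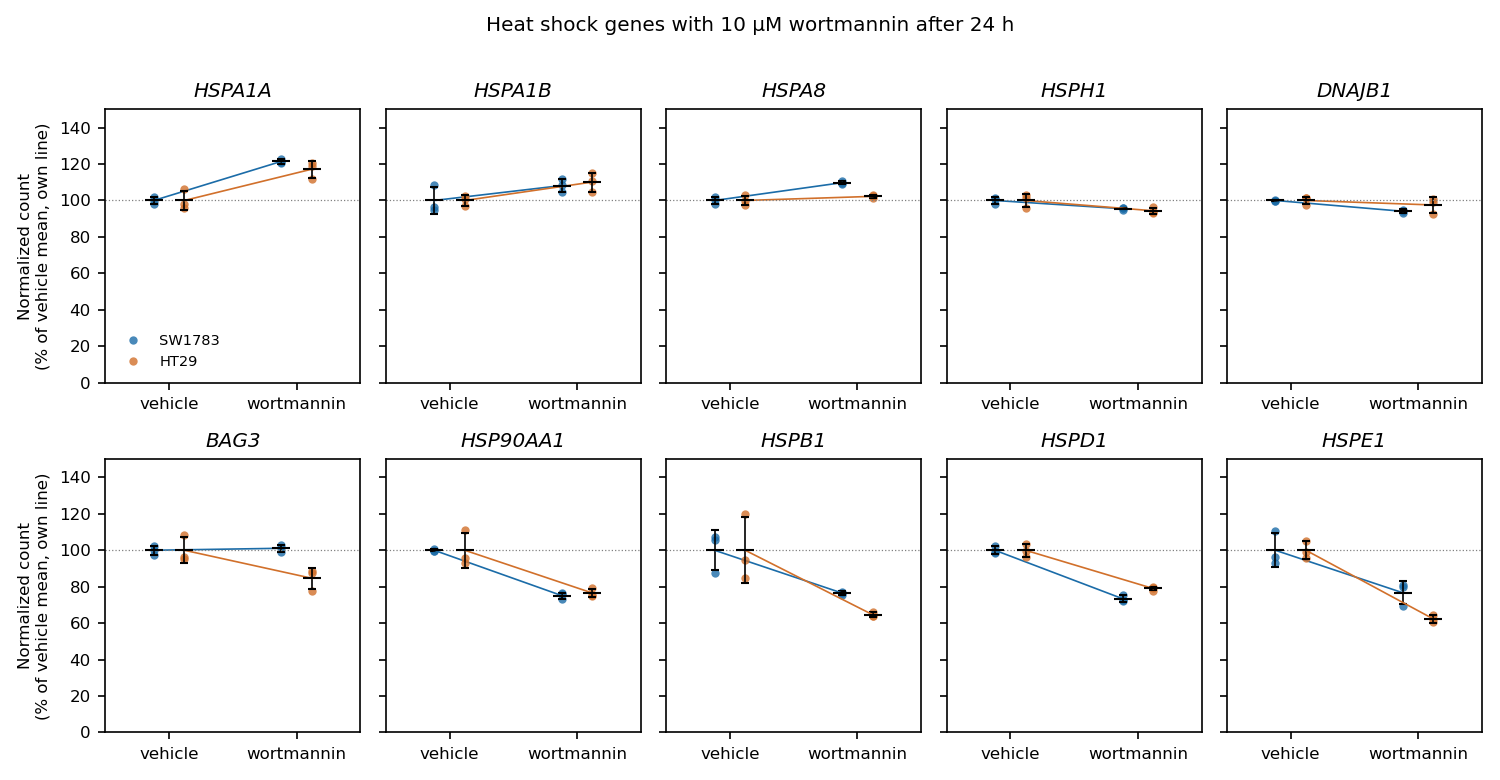
Normalized count of each gene with 10 µM wortmannin, as a percentage of the batch A vehicle mean of the same line, with 1 point per library, black marks and bars for the mean and SD of 3 libraries, SW1783 in blue and HT29 in orange. HSP90AA1, HSPB1, HSPD1 and HSPE1 lie below 100% in both lines and HSPA1A lies above 100% in both.

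Ratios within a library do not depend on scaling and show which genes moved together. The ratio of HSPA1A to HSPA8 raw counts stayed between 0.0966 and 0.104 in the SW1783 vehicle of batch B and between 0.0947 and 0.0981 at the high dose. At the low dose it was 0.108 to 0.116, above every vehicle library. With wortmannin it was 0.109 to 0.112 in SW1783, against 0.0958 to 0.104 in the vehicle of batch A. In HT29 it was 0.102 to 0.108 with wortmannin, against 0.0862 to 0.0981. HSPA1A to HSPA1B was 1.08, 1.20 and 1.15 in that vehicle and 0.901, 0.848 and 0.806 at the high dose, and the groups did not overlap (exact two-sided permutation test, p = 0.1, the smallest possible value). In HT29 the ratio of HSPE1 to HSPD1 was 0.201 to 0.21 in the vehicle of batch B. At the high dose it was 0.155, 0.18 and 0.236 in ascending order, the highest being replicate 2. At the medium dose it was 0.17 to 0.189, below every vehicle library, and at the low dose it overlapped vehicle. Its mean difference from vehicle on the log2 scale was -0.18 at the medium dose. With wortmannin the difference was -0.34, with no overlap (exact two-sided permutation test, p = 0.1 for each). Within SW1783, log2 levels of HSPA1A and HSPA8, centred on the mean of their line and batch, correlated with Pearson's r = 0.99 over 18 libraries, and those of HSPD1 and HSPE1 with r = 0.44. In HT29 these correlations were 0.11 and 0.92 over 18 libraries, and 0.59 and 0.86 over the 17 without replicate 2 of the high dose. The libraries share their treatments, so these values are descriptions.

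**Figure D5:**
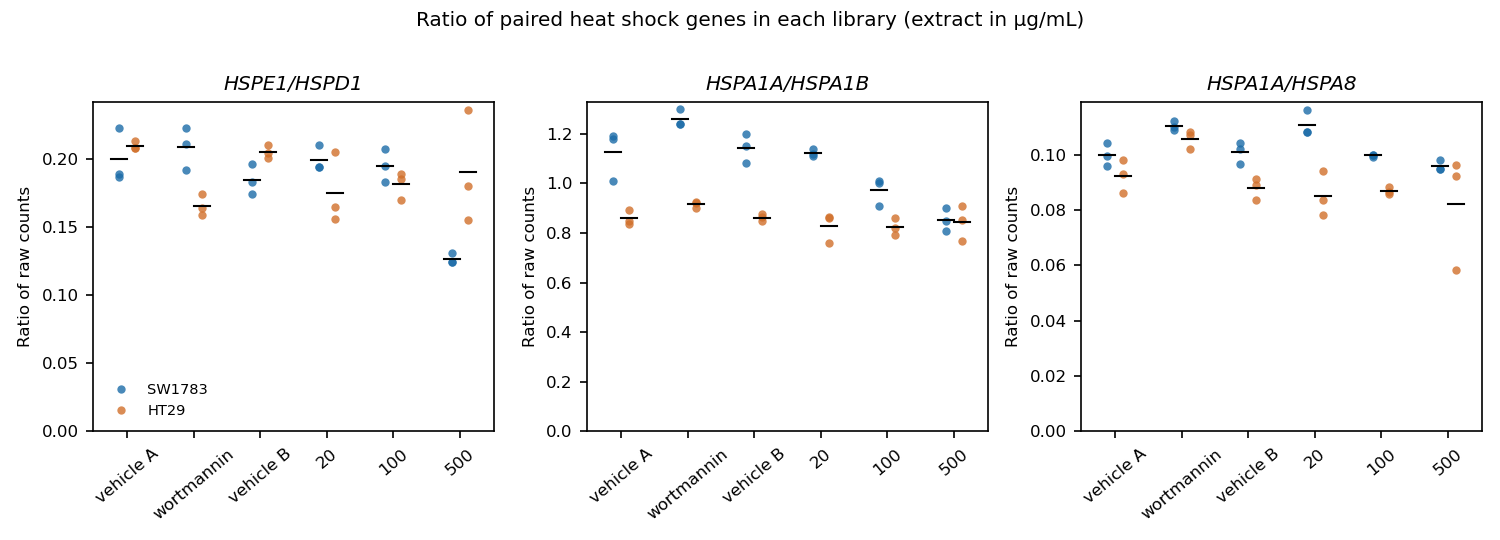
Ratio of raw counts of HSPE1 to HSPD1, HSPA1A to HSPA1B and HSPA1A to HSPA8 in each library by group (extract in µg/mL), with 1 point per library and a black line for the mean of 3, SW1783 in blue and HT29 in orange. The HSPE1 to HSPD1 ratio of SW1783 is lowest at 500 µg/mL, at 0.124 to 0.131, and the HSPA1A to HSPA8 ratio of HT29 has 1 library at 0.0582.

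The other chaperone genes of 11 lists, 88 genes without the 10 members, give the surroundings. At the high dose in SW1783, 86 of them were tested, of which 13 were called higher, against 8.66% of all genes, and 6 lower, against 9.57%. Their median log2 fold change was 0.02, against -0.48 for the 10 members and -0.01 for all genes tested. Of the list of heat-inducible genes linked to HSF1, 4 of 13 were called lower, against 9.57% of all genes, and none higher, against 8.66%. At any size 7 of 13 were lower, against 22.6% of all genes, and 1 was higher, against 4641 of 19453 genes. The 4 were DNAJA1, a J protein that works with HSPA8 (-1.07 ± 0.04), the small heat shock gene HSPB8, a partner of BAG3 (-1.04 ± 0.10), DNAJB4 (-0.66 ± 0.05) and the collagen chaperone gene SERPINH1 (-0.63 ± 0.03). HSPA2, another cytosolic HSP70 gene, fell by 66.4% (-1.57 ± 0.13). HSF1 itself rose (0.68 ± 0.05, adjusted p = 2.42e-40).

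Chaperones of the endoplasmic reticulum moved the other way in the same libraries. Of 7 listed genes, 5 were called higher and none lower at the high dose in SW1783, against 8.66% of all genes called higher. DNAJB9 rose 3.86-fold (1.95 ± 0.06) and HSPA5, the HSP70 of that compartment, rose 3.58-fold (1.84 ± 0.02). HYOU1, its exchange factor, rose 1.8-fold (0.85 ± 0.03). In mitochondria, HSPA9, the HSP70 of that compartment, rose 2.17-fold (1.12 ± 0.02) and its exchange factor GRPEL2 rose 2.18-fold, as did the protease gene LONP1 (2.22-fold), whereas HSPD1 was at 0.996 of vehicle and HSPE1 at 0.684. LONP1 was the only 1 of 8 listed mitochondrial proteases called, against 8.66% of all genes called higher, and the list median was 0.21. GRPEL2 was likewise the only 1 of 8 listed exchange factors called (median 0.14), so GRPEL1 was not called. HSPA13 (2.05-fold), the prefoldin gene PFDN2 (2.04-fold) and DNAJA4 (1.8-fold) also rose. At the medium dose HSPA5 (0.85 ± 0.02), DNAJA4 (0.69 ± 0.19), LONP1 (0.69 ± 0.05), DNAJB9 (0.67 ± 0.06) and HSPA9 (0.59 ± 0.03) were called higher, 5 of 81 tested against 2.34% of all genes, and no gene of these lists was called lower.

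Among the same 88 genes in HT29, 0 of 80 tested were called at the high dose by DESeq2, against 2.92% of all genes, with 26 of the 88 at an unadjusted p under 0.05 and 0 called by edgeR. At any size 7 were higher, against 4% of all genes, and 1 lower, against 3.62%. With wortmannin 42 of 81 tested in SW1783 fell at any size, against 20.1% of all genes, and 32 of 79 tested in HT29, against 11.1%. Of the 88 genes, 25 fell in both lines, and the share of all genes that did so was not computed. All 8 genes of the cytosolic chaperonin (TCP1 and the CCT genes) were among these 25, CCT5 at -0.41 ± 0.03 in SW1783 and at -0.31 in HT29. The chaperonin genes were picked out after their values were seen, so this only describes them. At the high dose of the extract the interaction between the lines was called higher in SW1783 for 5 of 7 chaperones of the endoplasmic reticulum, against 6.86% of all genes, with a median of 0.67, whereas the median over the 10 members was -0.58 and that over all genes tested was -0.04.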

How the data were processed

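The authors sequenced directional mRNA libraries as paired-end reads, trimmed them with Trim Galore 0.6.5, aligned them with STAR 2.7.3a and estimated gene counts with RSEM 1.3.3 (versions per the submitters' processing notes). The deposited table holds RSEM expected counts per gene and library, not normalized. The methods name the genome GRCh38 and also hg19, so positions (GENCODE v44 and RefSeq, GRCh38) only describe the genes. The strand setting of RSEM was not stated.

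Here expected counts were rounded to whole numbers, since 8.84% were not whole, and tested with the two-sided Wald test over all genes, in DESeq2 1.42.0 (R 4.3.3). For each line, the 12 libraries of batch B were fitted together, and the 6 of batch A separately. Interactions used both lines. Adjustment of p-values followed Benjamini and Hochberg, over all genes of a comparison. A gene was called at an adjusted p under 0.05 and a change over 1.5-fold. Values are normalized counts, and log2 fold changes are ± SE with n = 3 per group. Total counts per library were 15941250 to 33866636. A library count of 0 allows up to 3 counts, which covers counting error only. The 10 genes and the chaperone lists (98 of 99 symbols matched) were chosen with earlier results of these data known. All 10 members were named. Of the lists, up to 3 called genes per list and comparison were named, where groups did not overlap and the mean normalized count was at least 100, largest changes first, and SERPINH1, CCT5 and the other chaperonin genes were named after their values were seen. Alternatives were TMM size factors, removal of genes with low counts, edgeR 4.0.16 (quasi-likelihood test), fits with only the groups compared, a replicate block, no fold threshold, removal of 741 genes that can dominate a library's composition, HSPA1A and HSPA1B summed, and leaving out each library (90 refits). The fit was tested on simulated counts. Sequences were aligned with Biopython 1.88.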

Additional observations from a re-analysis of the deposited data

Results flagged for a closer look

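At the high dose of the extract the change from vehicle differed between SW1783 and HT29 for 5 of the 10 genes, against 7.77% of all genes, by a test of the interaction with DESeq2 (SW1783 minus HT29, log2 scale, adjusted over all genes). HSPA8 differed by -1.57 ± 0.11, HSPA1A by -1.51 ± 0.11, HSPA1B by -1.12 ± 0.09, HSPE1 by -0.76 ± 0.26 and HSPH1 by -0.64 ± 0.05. HSPA8, HSPA1B and HSPH1 fell in SW1783 and rose in HT29 at any size, although by edgeR those rises had adjusted p of 0.12, 0.124 and 0.0879. For HSPE1 the call was lost when only the groups compared entered the fit (adjusted p = 0.0509) and without HT29 high-dose replicate 2 (-0.37, adjusted p = 0.0277, under 1.5-fold), in which HSPE1 was at 9322 normalized counts against 4343 and 5093 in the other two. Cell line and culture medium cannot be told apart. Groups held 3 libraries, too few to test single libraries as outliers.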

How the results depend on the processing

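Over 2516 values of single genes under the alternatives, 2451 kept their direction and their side of the thresholds, 3 lost a call, 62 gained one and 0 reversed while called. A sign change with neither value called occurred in 62. The alternative with no fold threshold could only add calls, and its gains are among those counted. Most values were not called at first and could not lose a call, so the share kept says little about the calls. With no fold threshold the counts of members called rose to 9 for the SW1783 high dose, 6 for the medium dose, 3 for the low dose, 9 for high against medium dose and 7 for wortmannin. They rose to 5 for the HT29 high dose and 5 for HT29 wortmannin, and for the difference between lines to 9 at the high dose, 5 at the medium dose, 2 for wortmannin and 10 in the vehicle. Leaving out 1 library gave 1 to 2 members for HT29 wortmannin (1 without vehicle replicate 1), 4 to 5 for the SW1783 high against medium dose, 4 to 7 for the interaction at the high dose and 6 to 7 for the vehicle difference. The 7 came without HT29 vehicle replicate 1, where HSP90AA1 and HSPB1 passed, and the 4 without HT29 high-dose replicate 2, where HSPE1 did not. For the SW1783 high dose it was 4 in all 6 refits. Within a batch, same-numbered deviations correlated at -0.461 to 0.326 in HT29 batch B and -0.118 to 0.221 in SW1783 batch B. In batch A it was -0.055 to 0.154 in HT29 and 0.011 to 0.053 in SW1783. Different-numbered deviations correlated at -0.495 to 0.528, -0.158 to 0.098, -0.178 to 0.145 and -0.066 to 0.034 in the same order. The ranges overlapped in each batch and line. Among the extract libraries of SW1783 batch B alone, same-numbered pairs lay at -0.019 to 0.221 and different-numbered pairs at -0.158 to 0.098. Some pairing by replicate number is therefore possible there. Between the vehicles of both batches the replicate numbers did pair the libraries (0.232 to 0.771), and with the block HT29 HSP90AA1 differed there by 0.07 (adjusted p = 0.000339, DESeq2). With the replicate block the SW1783 high dose still called 4 members and no other count of members changed its side. Precision was lowest for HSPE1 in HT29 batch B, with a standard error of 0.23.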

Other observations

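For each of the 10 genes, the 2 genes most like it were found by Pearson's r over all 36 libraries, among 11792 genes, from log2 normalized counts centred within line and batch. HSPA1A was most like PRR5L (r = 0.958) and HEXIM1 (0.952), and HSPA1B was most like PRR5L (0.929) and GABRE (0.927). HSPA8 was most like MAT2A (0.961), which encodes the enzyme that makes S-adenosylmethionine, and the keratin gene KRT18 (0.957). HSP90AA1 was most like CACYBP (0.938) and SERBP1 (0.93), HSPH1 like SFXN1 (0.894) and ZHX1 (0.892), DNAJB1 like LINC00511 (0.903) and CDK2 (0.872), HSPB1 like H2AX (0.939) and AK1 (0.927), and BAG3 like SMPD4 (0.847) and KCTD10 (0.838). HSPD1 was most like GLRX3 (0.955), a glutaredoxin, and FAM136A (0.938), and HSPE1 was most like PHB1 (0.93), a mitochondrial inner membrane protein, and SNRPF (0.922). The libraries share their treatments, and the genes were selected as the highest of many, so these values describe likeness only. Over the 35 libraries without HT29 high-dose replicate 2, the r of HSPD1 was 0.936 with GLRX3 and 0.908 with FAM136A, and that of HSPE1 was 0.906 with PHB1 and 0.897 with SNRPF.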
